A study of Drosophila melanogaster with 17 samples.

Results

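The glial translatome 3 days after a closed head injury was measured in 6 of the 17 libraries of this series, 3 from injured (TBI) flies and 3 from sham flies. The libraries were picked by their labels alone, as those of one collection day, and every gene of the expression table was kept. All flies carried the pan-glial driver repo-GAL4 and the transgene UAS-GFP::RpL10A, sham flies included, so that a ribosomal protein fused to GFP was made in glia and ribosome-bound RNA could be pulled down from heads with an antibody against GFP (TRAP-seq). TBI flies received dCHI, a series of blows from a solenoid pin to the head of a restrained, awake fly, at an age of 3 to 7 days, and sham flies received no blows. Heads were collected at lights-on (ZT0), and each library came from many pooled heads. The labels call this collection day 6 and the study's tables call it day 3, the name used here. The labels give female flies where the study's methods give males; Of the yolk protein genes of female fat body and ovary, Yp1 stood between 4108 and 13076 TPM and Yp3 between 1556 and 4733 TPM in the 6 libraries, while Yp2 was at or under 0.00197 TPM in each. The driver takes in all kinds of glia at once, so no glial subtype was measured on its own, and more message per cell, more of it on ribosomes and more cells of a type cannot be told apart.

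Flies answer infection and injury with small secreted antimicrobial peptides. Most are switched on by the Imd pathway, in which peptidoglycan receptors activate the NF-kB factor Relish, and others by the Toll pathway, in which a protease cascade cuts the ligand Spätzle and the factors Dif and Dorsal enter the nucleus. JAK/STAT signalling, started by the unpaired cytokines, switches on the Turandot stress peptides. Glia wrap and feed neurons, form the blood-brain barrier, clear debris and take up transmitter, and are one source of antimicrobial peptides inside the head.

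Levels are given in TPM, relative transcript abundances scaled for transcript length. TBI was compared with sham by limma on log2(TPM + 1) with the replicate number as a block, and log2 fold changes (TBI against sham) are on that scale with their standard error (SE), which understates differences of genes at a few TPM. A gene was called when its log2 fold change was 0.6 or more in either direction and its p, adjusted over all genes tested, was 0.1 or less. Values of a gene are listed in the order of replicates 1, 2 and 3, and the spread between the 3 libraries of an arm is the only error available, because TPM hold no read depth and the study calls the replicates biological without stating what was kept apart between them.

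Some libraries stood apart within their arm. Sham replicate 2 held RNA that the other 5 libraries almost lacked. The mean log2(TPM + 1) of 10 female germline genes was 5.14 in it and 1.25 to 1.54 elsewhere, and that of 47 digestive enzymes of the midgut was 2.20 against 0.41 to 0.58. Its thioredoxin gene dhd, made in the ovary, reached 558 TPM where no other library passed 0.844 TPM, and its trypsin gene alphaTry reached 402 TPM where the others stayed at or under 1.67 TPM. TBI replicate 1 had the highest neuronal marker level, 6.47 against 5.12 to 5.59, and the widest relative log expression, with an interquartile range of 0.591 against 0.226 to 0.409. Glial RNA was present throughout: the mean over 20 glial markers was 5.86 to 6.03 in sham and 5.66 to 5.90 in TBI, with repo, the glial homeobox gene, at 37.9 to 52.6 TPM and alrm, an astrocyte gene, at 297 to 434 TPM. Neuronal transcripts were present too, with the synaptic vesicle gene nSyb at 449 to 775 TPM. Photoreceptor transcripts were abundant: the mean over 15 such genes was 7.41 to 8.21, and they summed to 43118 to 56603 TPM per library. The 20 glial markers summed to 3748 to 5063 TPM.

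**Figure D1:**
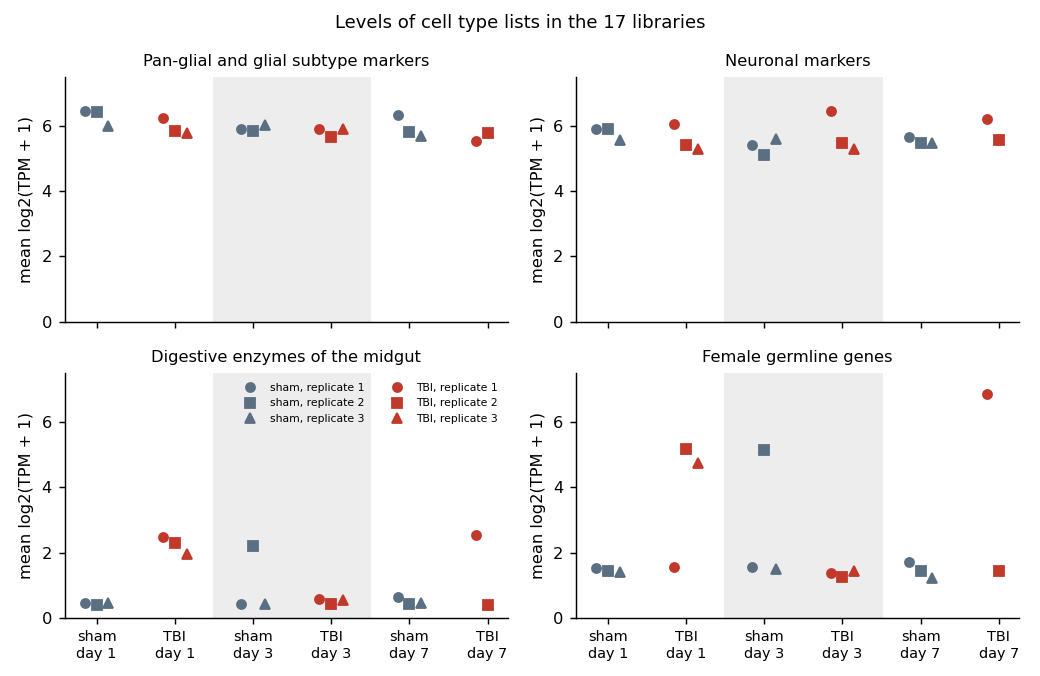
Mean log2(TPM + 1) of 4 cell type lists in each of the 17 libraries, by arm and day, with the symbol giving the replicate and day 3 shaded. On day 3 the glial level varied little (5.66 to 6.03), TBI replicate 1 was highest in neuronal markers (6.47), and sham replicate 2 was alone in high digestive (2.20) and germline (5.14) levels.

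The log2 fold change, sign included, also rose with transcript length, in replicate pairs 1 and 2 but not in pair 3. Over 8318 genes averaging 1 TPM or more and with an annotated length, the Spearman correlation of length with the log2 fold change was 0.374, and it was 0.458, 0.279 and −0.016 in replicate pairs 1, 2 and 3. The median log2 fold change went from −0.13 in the shortest 1665 of these genes to 0.22 in the longest 1664. After genes of like length were centred, 862 genes had an unadjusted p under 0.05 in limma, 533 higher in TBI and 329 lower. List values recomputed in that way are given for the respiratory chain and mitochondrially encoded lists only. Length as a cause of the differences was not tested. Sleep regulators, neuronal markers and clock genes had median transcript lengths of 5762, 4400.5 and 4156 bases, within the range of the longest 1664 genes.

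No gene of the 11835 tested was called (0%). By limma 688 genes had an unadjusted p under 0.05, which is 5.81%, and of these 380 were higher in TBI (3.21%) and 308 lower (2.6%). These shares moved with the libraries and the block: 301 were higher and 99 lower without replicate 2, 219 and 329 without replicate 1, and 293 and 131 without the block. All 3 TBI libraries lay above all 3 sham libraries for 515 genes (4.35%) and below them for 371 (3.13%). The median log2 fold change over all genes was 0.03, with 54.5% of genes above 0. The smallest adjusted p was 0.157, for AttC. It was 0.567 for CG34227, bon and Mtk, and at least 0.815 for every other gene. The descriptions that follow are therefore of levels and their spread, and of unadjusted p-values read against those shares. With genes under a mean of 1 TPM left out, 3 of 8587 genes (0.0349%) passed: AttC (adjusted p = 0.00912), Mtk (adjusted p = 0.0604) and CG34227 (adjusted p = 0.0604), and all 3 were higher in TBI. None passed in that setting without replicate 2 or without the block.

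**Figure D2:**
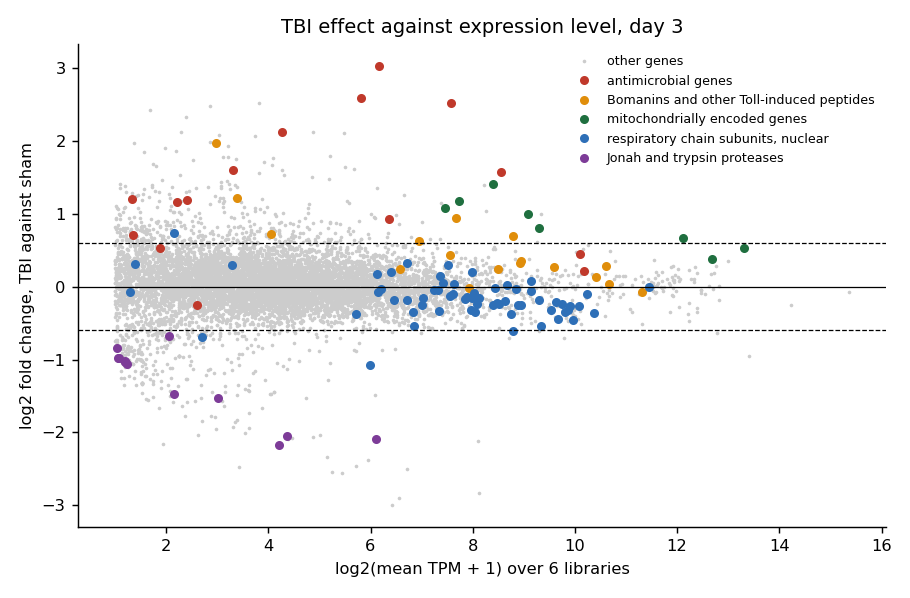
Log2 fold change of TBI against sham on day 3 for each gene (y axis) against log2 of its mean TPM plus 1 over the 6 libraries (x axis), for genes with a mean of at least 1 TPM, with dashed lines at 0.6 and −0.6 and 5 gene groups in colour. Antimicrobial genes lay above 0 with 1 exception (Def), mitochondrially encoded genes were all above 0, and the Jonah and trypsin proteases, which summed to 762 TPM in sham replicate 2 and to at most 5.46 TPM elsewhere, were all below.

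Antimicrobial peptide genes led the comparison: among 5251 genes averaging 10 TPM or more, the diptericin gene DptA (3.03) and the attacin gene AttC (2.60) had the highest log2 fold changes. Of 16 antimicrobial genes, 15 stood higher after injury (median log2 fold change 1.18, against 0.03 over all genes). Of the 16, 8 were higher at an unadjusted p under 0.05 and none lower, against 3.21% and 2.6% of all genes. TBI libraries lay above all sham libraries for 9 of them and below for none, against 4.35% and 3.13% of all genes. All 11 genes listed here as Imd-regulated were higher, 7 of them at an unadjusted p under 0.05, with a median of 1.21 that was 0.96, 1.63 and 1.50 in the 3 replicate pairs. Without sham replicate 2 (no block), the 11 were again all higher and 6 had such a p, with a median of 1.07.

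AttC encodes an attacin, a glycine-rich peptide that acts on Gram-negative bacteria (FBgn0041579, chromosome arm 2R, 13393705 to 13394667, release 6). It stood at 22.7, 5.40 and 17 TPM in sham and at 138, 38.1 and 111 TPM in TBI. Sham replicate 2 was lowest and TBI replicate 2 the lowest of its arm, and the arms did not overlap. The log2 fold change was 2.55, 2.61 and 2.64 in the 3 pairs, the most even of the antimicrobial genes, and 2.60 ± 0.11 (SE) in all, with an unadjusted p of 1.33e-05, and of 0.00696 without the block. Over 15 other settings AttC kept this direction, between 2.04 and 2.70, with adjusted p between 0.00912 and 1. The attacin gene AttB stood at 4.39, 2.05 and 5.78 TPM in sham and 14.4, 14.1 and 12.7 TPM in TBI, and AttA stayed at or under 3.41 TPM. AttA and AttB are near-identical copies, so reads may be split between them, and their separate values are uncertain. AttD was at or under 1.45 TPM everywhere, with arms that overlapped.

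The diptericins and Drosocin, also directed at Gram-negative bacteria, varied more among the sham libraries than AttC did. DptA (chromosome arm 2R, 18865765 to 18866260) had 48.2, 2.28 and 17 TPM in sham and 126, 82.9 and 149 TPM in TBI. No sham library reached a TBI library, and the log2 fold change was 3.03 ± 0.66 (unadjusted p = 0.00881), but the pairs ran from 1.37 to 4.68, the highest in replicate 2 with its low sham value. Without sham replicate 2 (no block), the DptA value was 1.97. Dro had 156, 16.7 and 48.8 TPM in sham and 259, 245 and 408 TPM in TBI (log2 fold change 2.52 ± 0.64, unadjusted p = 0.0149), with the same sham library lowest. DptB had 13.2, 1.70 and 5.06 TPM in sham against 42.1, 11.5 and 35.4 TPM in TBI. Each DptB pair was higher in TBI, while TBI replicate 2 fell below sham replicate 1, and the log2 fold change was 2.13 ± 0.26 (unadjusted p = 0.000918).

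Cecropins, short membrane-lysing peptides, were scarce. CecA1 stood at 2.41, 1.76 and 2.62 TPM in sham and 5.64, 6.97 and 6.58 TPM in TBI, without overlap (log2 fold change 1.19 ± 0.26, unadjusted p = 0.00957). CecC had 1.81, 1.01 and 1.50 TPM against 2.50, 2.40 and 12.5 TPM, so that 1 TBI library held most of its difference (1.17; 0.54 without replicate 3). CecB also had TBI above sham, at no more than 3.73 TPM, and CecA2, a near copy of CecA1 with which it may share reads, overlapped between arms.

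The 3 peptide genes listed here as Toll-regulated were split. The lists place each gene under a single pathway, although a gene may respond to more, so no contrast between pathways is drawn. Mtk, Metchnikowin, a proline-rich antifungal and antibacterial peptide (chromosome arm 2R, 15408846 to 15409113), had 204, 109 and 250.4 TPM in sham and 499.7, 365 and 827 TPM in TBI. Every TBI library exceeded every sham library, with 1.29, 1.73 and 1.72 in the pairs and a log2 fold change of 1.58 ± 0.13 (unadjusted p = 0.000192, adjusted p = 0.567). Drs, Drosomycin, the antifungal readout of Toll, had 19.2, 170.0 and 25.5 TPM in sham and 56.9, 139 and 77.5 TPM in TBI. Sham replicate 2 was the highest of all 6 libraries for Drs and the lowest for AttC, DptA, DptB, Dro and Mtk. The log2 fold change of Drs was 0.93 ± 0.43 (unadjusted p = 0.0921) with that library and 1.54 without replicate 2. Def, Defensin, active against Gram-positive bacteria, had 1.74, 6.80 and 9.40 TPM in sham and 2.89, 4.05 and 5.72 TPM in TBI, and was the single antimicrobial gene with a value below 0 (−0.25 ± 0.35, unadjusted p = 0.508). The JAK/STAT-regulated Listericin and vir-1 were abundant in every library, at 578 to 1557 TPM and 783 to 1526 TPM, and overlapped between arms (0.45 and 0.22).

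**Figure D3:**
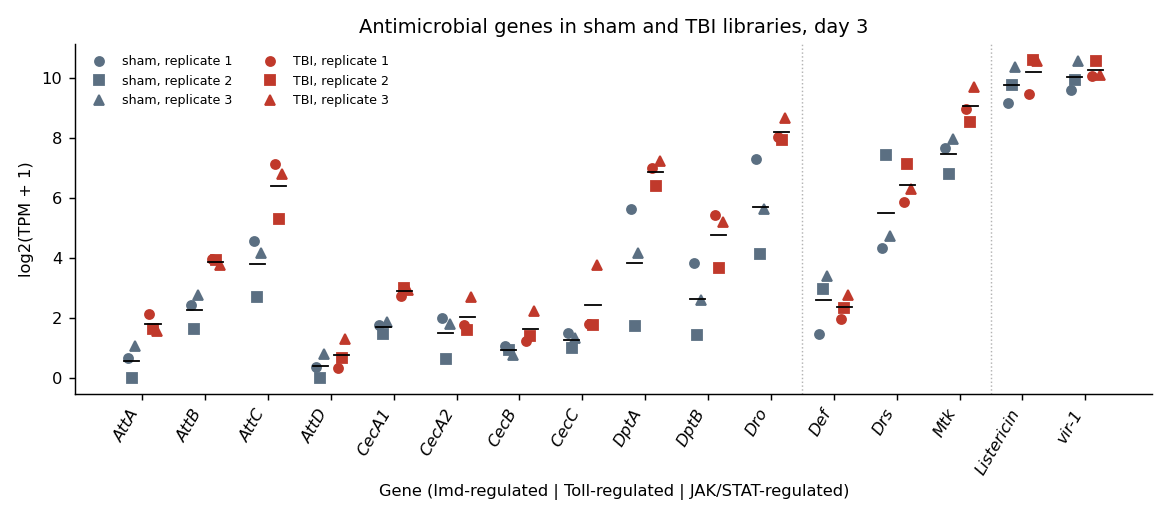
Log2(TPM + 1) of the 16 antimicrobial genes in the 3 sham (grey) and 3 TBI (red) libraries of day 3, with the symbol giving the replicate, the bar the mean of the 3, and dotted lines between Imd-, Toll- and JAK/STAT-regulated genes. AttC, DptA, Dro and Mtk showed no overlap between the arms, and sham replicate 2 (square) was lowest for these 4 and highest for Drs.

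Other peptides induced by infection followed in part. Bomanins are short secreted peptides made under Toll control. Of 17 Bomanin and other Toll-induced peptide genes, 15 were higher, with a median log2 fold change of 0.33 (all genes 0.03). At an unadjusted p under 0.05, 7 were higher and none lower, against 3.21% and 2.6% of all genes. The pair medians were 0.55, 0.53 and −0.13, so pair 3 did not share the shift. BomBc3 had 112, 156 and 139.7 TPM in sham and 214, 381 and 212 TPM in TBI (0.94 ± 0.16, unadjusted p = 0.00351), and BomBc2 had 212, 495 and 324 TPM against 381, 674 and 566 TPM (0.70 ± 0.12, unadjusted p = 0.00399). The arms were apart for BomBc3 and overlapped for BomBc2, where each TBI library still exceeded its own pair. edin, a secreted peptide induced by bacteria, had 3.28, 0.914 and 2.72 TPM in sham and 9.52, 14.1 and 10.8 TPM in TBI (1.98 ± 0.42, unadjusted p = 0.00782). The 4 Drosomycin-like genes tested went the other way, all lower, with a median of −0.36. Drsl5, the most abundant of them, had 130.3, 147 and 137 TPM in sham and 97.4, 119 and 102 TPM in TBI, with every TBI library below every sham library (−0.38 ± 0.09, unadjusted p = 0.0130).

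The receptors and signal carriers upstream of these peptides moved far less. Of 21 Imd pathway components, 12 were higher and 9 lower, with a median of 0.06, and PGRP-SB1 alone had an unadjusted p under 0.05. PGRP-SB1 is a secreted amidase that cuts peptidoglycan and is itself induced by Imd (chromosome arm 3L, 16727299 to 16727989). It had 29.8, 24.3 and 28.7 TPM in sham and 59.1, 43.1 and 94.2 TPM in TBI, with a log2 fold change of 1.15 ± 0.21 (unadjusted p = 0.00485) and no overlap. The receptor PGRP-LC was at 19.5 to 30.9 TPM with overlapping arms (0.18; −0.05 without replicate 1). Rel, which encodes Relish, had 44.7, 44.1 and 47.6 TPM in sham and 77.2, 46.6 and 64.8 TPM in TBI, with 1 TBI library inside the sham range (0.43, unadjusted p = 0.0610).

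Of 17 Toll components, 12 were higher (median 0.11), and the proteases SPE and modSP were at an unadjusted p under 0.05. SPE, which cuts Spätzle, had 109, 84.5 and 81.0 TPM in sham and 118, 135 and 142 TPM in TBI, without overlap (0.53 ± 0.17, unadjusted p = 0.0325). spz itself, the Spätzle gene, stood lower in all 3 TBI libraries, 31 to 33.1 against 34.0 to 35.7 TPM, a difference of −0.12. Of 8 JAK/STAT components, 7 were higher (median 0.16), and the cytokine upd3 had 0.938, 0.157 and 0.117 TPM in sham and 1.25, 0.934 and 0.739 TPM in TBI, with sham replicate 1 inside the TBI range (0.53, unadjusted p = 0.0357).

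All 7 Turandot genes tested were higher, with a median of 0.68, but the pair medians were 1.27, 0.72 and 0.12 and the difference lay mainly in TBI replicate 1. TotM had 16.3, 9.81 and 28.2 TPM in sham and 83.3, 42.1 and 32.1 TPM in TBI (1.49 ± 0.47, unadjusted p = 0.0308). TotC had 61.7, 92.7 and 146 TPM against 383, 153 and 158 TPM, and TotA had 142, 155 and 295 TPM against 637, 309.6 and 288 TPM. In replicate 3, TotA and TotC were near equal between arms; the copies resemble each other and may share reads. Without replicate 1, none of the 6 then tested had an unadjusted p under 0.05, and their median was 0.43. TotX stood at 19.9 to 22.9 TPM in sham and 28.2 to 37.5 TPM in TBI (0.59 ± 0.17, unadjusted p = 0.0225).

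Heat shock protein genes were divided. Of 16 genes, 11 were higher, with a median of 0.17. At an unadjusted p under 0.05, 2 were higher and 2 lower, against 3.21% and 2.6% of all genes. Without replicate 2 only 8 were higher, with a median of −0.12. l(2)efl, an alpha-crystallin type chaperone, had 77.5, 45.2 and 55.9 TPM in sham and 99.4, 145 and 110.0 TPM in TBI, without overlap (0.99 ± 0.27, unadjusted p = 0.0201; 0.66 without replicate 2). The small chaperones Hsp26 and Hsp27 were lower within each pair. Hsp26 had 15.7, 117 and 19.2 TPM in sham and 10.8, 43.9 and 7.50 TPM in TBI (−1.05 ± 0.23, unadjusted p = 0.00888, and 0.306 without the block). In both arms replicate 2 was highest for Hsp26, and the arms overlapped. Without sham replicate 2 (no block), Hsp26 was at −0.15.

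The genes with the lowest p among those at 10 TPM or more, with all pairs alike and no overlap, added few families to this list. SPARC, a secreted collagen-binding glycoprotein of basement membranes (chromosome arm 3R, 26869238 to 26871995), had 50.9, 25.9 and 38.7 TPM in sham and 130.1, 85.1 and 81.3 TPM in TBI. All TBI libraries were higher than the sham libraries of day 3. The log2 fold change was 1.36 ± 0.16 (unadjusted p = 0.000771), staying between 1.10 and 1.51 over the other settings. SPARC in sham stood at 82.8, 21.5 and 81.3 TPM on day 1 and 107, 56.7 and 59.5 TPM on day 7. The day 3 TBI values of 85.1 and 81.3 TPM lay within that range. jbug, an actin-binding filamin-type protein, had 67.7, 29.6 and 42.5 TPM against 119, 71.8 and 73.3 TPM (0.94), and the tetraspanin Tsp42El had 48.8, 34.1 and 44.1 TPM against 79.1, 52.4 and 70.6 TPM (0.65). The serine protease teq stood at 80.5 to 100.3 TPM in sham and 118 to 212 TPM in TBI (0.89). In all 4, sham replicate 2 was the lowest library. CG8086 (0.89) and CG3630 (1.07) were the remaining nuclear genes of unstated function in this set, and AttC, Mtk, BomBc3, PGRP-SB1, mt:ND6 and mt:ND4L completed it.

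A pair of genes with low p showed patterns of other kinds. CG34227 (chromosome arm 2R, 11248126 to 11248610) had 62.0, 279 and 145 TPM in sham and 154, 704 and 433 TPM in TBI. Its level ran over more than the injury difference between replicates, so the arms overlapped, yet the pairs gave 1.30, 1.33 and 1.57. The log2 fold change was 1.40 ± 0.10 (unadjusted p = 0.000118, and 0.0996 without the block). bon, which encodes the chromatin cofactor Bonus (chromosome arm 3R, 20593139 to 20612540), was at or under 0.000632 TPM in sham and at 4.03, 4.35 and 4.85 TPM in TBI (2.43 ± 0.19, unadjusted p = 0.000154). Over all 17 libraries, bon was at or under 0.00422 TPM in the 9 sham libraries and above 1 TPM in 5 of the 8 TBI libraries. It overlaps a gene on the opposite strand, from which its reads may not be told apart, and its sham values are too near 0 for a linear fold.

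Mitochondrially encoded genes were higher in TBI, and nuclear respiratory genes were lower by a small amount that shrank after centring by transcript length. Whether mitochondrially encoded RNA was bound to the tagged ribosomes, or was carried over into the pulldown, was not tested. All 8 mitochondrially encoded genes tested were higher in TBI and in every pair, with a median of 0.90 and pair medians of 0.57, 1.11 and 0.86. 6 had an unadjusted p under 0.05, against 3.21% of all genes. mt:ND4L had 253, 141 and 163 TPM in sham and 468, 593 and 404 TPM in TBI (1.42 ± 0.25, unadjusted p = 0.00409), and mt:ND6 had 208, 90.5 and 105 TPM against 349, 281 and 236 TPM (1.17 ± 0.19, unadjusted p = 0.00304); both are complex I subunits and neither overlapped. mt:ATPase8, of ATP synthase, had 576, 284 and 229 TPM against 1129, 529 and 507 TPM (1.00 ± 0.10, unadjusted p = 0.000434), with sham replicate 1 inside the TBI range and 0.63 without TBI replicate 1 and the block. For the abundant cytochrome oxidase transcripts the difference was smaller: mt:CoI had 8412, 3994 and 4645 TPM against 10881, 5065 and 6313 TPM (0.39; 0.07 without TBI replicate 1 and the block). The 8 genes summed to 28743, 13195 and 14695 TPM in sham and 37994, 21906 and 21434 TPM in TBI, so replicate 1 was highest in both arms. Without sham replicate 2 (no block) all 8 were higher, 2 with an unadjusted p under 0.05 and a median of 0.62.

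Of 80 nuclear genes of respiratory chain subunits, 25 were higher and 55 lower, with a median of −0.10 and 13 lower at an unadjusted p under 0.05 (2.6% of all genes). ND-MWFE, of complex I, had 364, 573 and 659 TPM in sham and 239.7, 419.7 and 388 TPM in TBI (−0.60 ± 0.11, unadjusted p = 0.00404; −0.35 without TBI replicate 1 and the block). ND-13B had 109.9, 142 and 152 TPM against 76.4, 108 and 93.9 TPM (−0.54) and, with ND-MLRQ (−0.35) and ATPsynE (−0.45), did not overlap. These are short transcripts, and after genes of like length were centred 38 of the 80 were higher, with a median of −0.03, 2 higher and 4 lower at an unadjusted p under 0.05. The 8 mitochondrially encoded genes, also short, had a median of 0.99 under that centring.

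**Figure D4:**
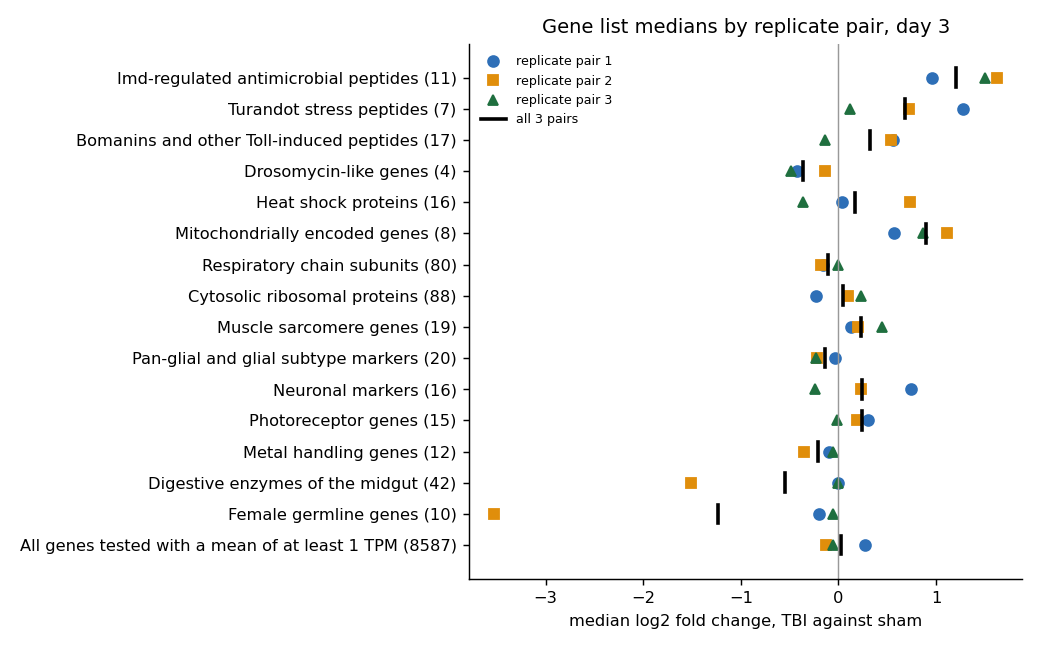
Median log2 fold change of TBI against sham on day 3 for 15 gene lists and all genes with a mean of at least 1 TPM, in each replicate pair (symbols) and over all 3 (black bars), with the number of genes in parentheses. Imd-regulated and mitochondrially encoded genes were above 0 in every pair, while neuronal markers (0.75, 0.23 and −0.24) and germline genes (−0.20, −3.52 and −0.05) took their medians mainly from 1 pair.

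Muscle genes were higher. All 19 sarcomere genes had a log2 fold change above 0, with a median of 0.23, and 8 had an unadjusted p under 0.05, against 3.21% of all genes higher at that p. Mhc, the myosin heavy chain, had 99.8, 52.4 and 49.6 TPM in sham and 136, 113 and 105 TPM in TBI (0.87 ± 0.17, unadjusted p = 0.00602). sls, a titin-like protein, had 20.6, 6.26 and 17.9 TPM against 44.6, 48.0 and 29.7 TPM (1.51, unadjusted p = 0.0261; 0.89 without replicate 2, where its sham value was lowest). Neither overlapped between arms. Without sham replicate 2 (no block), 15 of 19 were higher and 2 had such a p.

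Glial marker genes lay on the other side. Of 20 markers, 16 were lower, with a median of −0.14. At an unadjusted p under 0.05 none were higher and 3 lower, against 3.21% and 2.6% of all genes. nrv2, a sodium pump subunit of glia, had 542, 573 and 600.1 TPM in sham and 415, 399 and 459.6 TPM in TBI (−0.43 ± 0.09, unadjusted p = 0.00877). wrapper, a surface protein of glia that ensheath neuron cell bodies, had 49.2, 57.4 and 62.3 TPM against 32.1, 46.7 and 47.2 TPM (−0.43; −0.25 without TBI replicate 1 and the block). For both, each TBI library was below each sham library. repo (−0.16) and alrm (−0.28) overlapped. Without replicate 2, 15 of 20 markers were lower, none with an unadjusted p under 0.05.

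Transmitter handling by astrocytes was divided: of 10 genes, 5 were higher and 5 lower (median −0.07). At an unadjusted p under 0.05, 1 was higher and 3 lower, against 3.21% and 2.6% of all genes. Of these, Gat is also on the glial marker list and among its genes lower at that p. The GABA transporter Gat had 154, 146 and 143 TPM in sham and 138, 116 and 113 TPM in TBI (−0.27), and Gabat, which breaks down GABA, had 16.4, 21.6 and 17.4 TPM against 10.3, 12.2 and 12.4 TPM (−0.62, unadjusted p = 0.0185). Glutamine synthetase, Gs2, had 2246, 2203 and 2769 TPM against 1878, 2108 and 1812 TPM (−0.31). All 3 had TBI below sham. The potassium-chloride cotransporter kcc was the higher gene of low p, at 16.3, 14.2 and 16.8 TPM in sham and 45.1, 21.8 and 24.3 TPM in TBI (0.83 ± 0.24, unadjusted p = 0.0222; 0.52 without TBI replicate 1 and the block). Of 16 blood-brain barrier genes, 9 were higher (median 0.09), with none at an unadjusted p under 0.05.

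Markers of other cells were measured beside these lists. Of 16 neuronal markers, 12 were higher, with none at an unadjusted p under 0.05 and a median of 0.24, near the 0.22 of the longest 1664 genes. Without TBI replicate 1 (no block), 6 were higher, with a median of −0.10. Of 15 photoreceptor genes, 13 were higher (median 0.24), Arr1 at 431, 382 and 363 TPM against 1546, 421 and 734 TPM (1.00; 0.58 without replicate 1). Of 12 hemocyte genes, 8 were higher (median 0.25), with the blood cell markers Hml at 1.73 to 4.70 TPM and NimC1 at 0 to 1.82 TPM, and srp, a GATA factor of blood and fat body, at 0.580, 1.95 and 0.550 TPM against 2.69, 4.42 and 6.64 TPM (1.47, unadjusted p = 0.0146). The part of muscle, neuronal, eye or blood RNA in the lists above was not tested.

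The lower genes of lowest p had varied roles. Polr2I, a subunit of RNA polymerase II, had 26.9, 33.7 and 43.1 TPM in sham and 14.0, 17.7 and 24.2 TPM in TBI (−0.87 ± 0.13, unadjusted p = 0.00188). CG40470 had 60.3, 63.5 and 79.6 TPM against 37.1, 42.5 and 38.0 TPM (−0.77 ± 0.14, unadjusted p = 0.00459). Ect3, a beta-galactosidase, had 42.1, 51.3 and 62.1 TPM against 26.7, 33.8 and 33.4 TPM (−0.70), and Ssb-c31a, a transcriptional coactivator, had 51.4, 73.7 and 79.1 TPM against 32.6, 50.7 and 48.1 TPM (−0.63). All TBI libraries were below all sham libraries for each. The glycosyltransferase Ugt35B1 (−0.56), pr of pteridine synthesis (−0.45), CG10513 (−0.62), l(3)neo43 (−0.58), CG7888 (−0.46), CG5446 (−0.45) and CG12384 (−0.42) had the same pattern.

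Of 12 metal handling genes, 8 were lower (median −0.20), and without replicate 2 the count was 6 of 11. Of the 8, 2 had an unadjusted p under 0.05, against 2.6% of all genes lower at that p. MtnA, the metallothionein, had 5624, 18392 and 18390.1 TPM in sham and 2888, 12104 and 7569.7 TPM in TBI (−0.95 ± 0.22, unadjusted p = 0.0116, and 0.223 without the block), and replicate 1 was lowest in both arms. Without TBI replicate 1 and without the block, the MtnA value was −0.37. MtnD had 3.61, 70.9 and 3.37 TPM against 1.50, 13.5 and 0.888 TPM, which is −1.47 in the paired fit and −0.14 without sham replicate 2 and without the block. The superoxide dismutases Sod1 (−0.35, unadjusted p = 0.0214) and Sod3 (−0.58, unadjusted p = 0.00469) were lower within each pair, and stood at −0.20 and −0.30 without TBI replicate 1 and the block. Of 23 antioxidant genes, 13 were lower and 10 higher (median −0.06). Of 18 glycolysis and trehalose genes, 11 were lower (median −0.05), with Gapdh2 at 513, 549 and 574 TPM against 432, 423 and 497 TPM.

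Proteasome subunits stood lower in 29 of 40 genes, with a median of −0.12 and 1 at an unadjusted p under 0.05. That gene, Prosbeta4, had 24.4, 72.0 and 55.7 TPM in sham and 18.9, 5.49 and 10.8 TPM in TBI (−2.04 ± 0.64, unadjusted p = 0.0306; −1.31 without replicate 2). Without replicate 2, 22 of 38 proteasome genes were higher, with a median of 0.02. Of 88 cytosolic ribosomal protein genes, 57 were higher, with a median of 0.05, near the 0.03 of all genes.

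Dopamine and sleep genes were examined because the study names DAT and ple. It reports both as altered 1 day after injury and as unchanged on days 3 and 7. DAT, the dopamine transporter, had 18.0, 14.1 and 18.3 TPM in sham and 21.8, 14.4 and 16.3 TPM in TBI (0.04 ± 0.17, unadjusted p = 0.822). ple, tyrosine hydroxylase, had 30.8, 12.7 and 13.3 TPM against 31.6, 25.0 and 16.4 TPM (0.41 ± 0.22, unadjusted p = 0.137). Both overlapped. Of 15 genes of dopamine and monoamine handling, 14 were higher (median 0.17), 1 at an unadjusted p under 0.05. That was Hn, phenylalanine hydroxylase, listed at 0 TPM in all 3 sham libraries and at 5.49, 2.07 and 2.05 TPM in TBI (1.97 ± 0.30 on the log2(TPM + 1) scale, unadjusted p = 0.00214). Of 9 sleep regulators, 8 were higher, with a median of 0.26, near the 0.22 of the longest 1664 genes. Sik3, a salt-inducible kinase, stood at or under 2.52 TPM in sham and at 2.08 to 6.67 TPM in TBI (1.37, unadjusted p = 0.00452). Of 13 clock genes, 9 were higher (median 0.13, against the 0.22 of the longest 1664 genes), none at an unadjusted p under 0.05.

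Further lists of injury and stress responses held few genes of low p. Of 21 genes of glial engulfment and injury response, 16 were higher (median 0.15), 1 of them at an unadjusted p under 0.05. That was Mmp2, a matrix metalloproteinase, at 0.399, 0.215 and 0.767 TPM in sham and 1.45, 1.57 and 1.01 TPM in TBI, low throughout but without overlap (0.69, unadjusted p = 0.0404). Of 11 genes of the unfolded protein response, 4 were higher (median −0.06), among them its transcription factor gene Xbp1, at 241, 199 and 235 TPM against 306, 251 and 282 TPM with each TBI library above each sham library (0.31, unadjusted p = 0.0207). Autophagy genes were higher in 13 of 17 (median 0.15) and apoptosis genes in 6 of 14 (median −0.03), none of either with such a p.

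Secreted and detoxifying families gave few low p-values. Of 83 cuticle protein genes, 53 were higher (median 0.12), 5 at an unadjusted p under 0.05 and none lower, against 3.21% and 2.6% of all genes. Edg91 had the lowest p of them, at 0 (as listed), 0.685 and 1.53 TPM in sham and at 2.38, 10.6 and 8.06 TPM in TBI (2.13 ± 0.32, unadjusted p = 0.00215). Odorant binding proteins were higher in 26 of 38 genes, 3 higher and 1 lower at that p, and cytochrome P450 genes in 47 of 71, 2 of them at that p. Glutathione S-transferases were higher in 14 of 35 (median −0.03), serpins in 17 of 26 (median 0.12) and neuropeptides in 29 of 36 (median 0.16). Fat body and yolk genes, were higher in 10 of 11 (median 0.20), none at an unadjusted p under 0.05. The digestive list was lower in 35 of 42 genes, with pair medians of 0, −1.51 and 0, and the germline list in 9 of 10, so both medians, −0.54 and −1.24, lay in the pair of sham replicate 2.

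The day 3 effect was then set against that of day 1, with 3 sham and 3 TBI libraries, by an interaction test over 12446 genes. It called 2 genes (0.0161%), and 655 genes (5.26%) had a larger and 965 (7.75%) a smaller effect on day 3 at an unadjusted p under 0.05. Of the 16 antimicrobial genes, 10 had such a smaller effect, with a median difference of −1.36. Their median effects on days 1, 3 and 7 were 2.80, 1.18 and −0.03. The effect of AttC was 2.70 ± 0.54 on day 1 and 2.60 ± 0.11 on day 3, a difference of −0.10 ± 0.62 (unadjusted p = 0.880). For DptA the difference was −1.45 ± 1.14 (unadjusted p = 0.250) and for Dro −1.37 ± 1.32 (unadjusted p = 0.337). Whether AttC departed from the other genes was not tested. Drs went from 4.76 to 0.93, a difference of −3.82 ± 0.52 (unadjusted p = 0.000272, adjusted p = 0.149), and Mtk from 2.67 to 1.58 (unadjusted p = 0.0657). TotM went from 5.33 to 1.49 (−3.84 ± 0.56, unadjusted p = 0.000414, adjusted p = 0.149).

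The called genes were both smaller on day 3. Hsp26 stood at 8.98, 14.2 and 8.20 TPM in sham and 110, 173 and 139 TPM in TBI on day 1, so its effect was 3.64 there and −1.05 on day 3, a difference of −4.69 ± 0.28 (adjusted p = 0.0245). Hsp27 differed by −3.95 ± 0.41 (adjusted p = 0.121). CG31957 had 3.49, 2.86 and 4.03 TPM in TBI on day 1 and was at 0 or near it in all libraries of day 3, a difference of −2.15 (adjusted p = 0.0402). On day 1 the digestive level was high in all 3 TBI libraries, 1.95 to 2.47 against 0.38 to 0.46 in sham, and the germline level in 2 of them, whereas on day 3 both were high in 1 sham library; the part of this in the difference was not tested. None of these calls held with any replicate left out.

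Genes outside the immune lists differed between the days in both directions. Of the 8 mitochondrially encoded genes, 4 had a larger effect at an unadjusted p under 0.05, with a median difference of 0.61 and medians of 0.26, 0.90 and 0.22 on days 1, 3 and 7. SPARC was at 0.07 on day 1, 1.36 on day 3 and −0.96 on day 7, differences of 1.29 ± 0.42 from day 1 (unadjusted p = 0.0205) and of 2.31 ± 0.50 from day 7 (unadjusted p = 0.00585). CG34227 was at −0.19 on day 1 (difference 1.59 ± 0.14, adjusted p = 0.101). kcc was at −0.48 on day 1 (difference 1.32, unadjusted p = 0.00681), and Polr2I at 0.64 (difference −1.51, unadjusted p = 0.000443). CG40470 was lower by a like amount on each day, at −0.82, −0.77 and −0.96.

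Against day 7, with 3 sham and 2 TBI libraries, no gene of 12347 was called (0%) by limma, and 118 genes (0.956%) had a larger and 315 (2.55%) a smaller effect on day 3 at an unadjusted p under 0.05, which is 3.51% together. Only 1 of the 16 antimicrobial genes had such a p, AttC, with a difference of 2.95 ± 0.91 (unadjusted p = 0.0226, adjusted p = 0.903). Antimicrobial levels of day 7 overlapped between arms: the mean log2(TPM + 1) of the 16 genes was 3.31 to 5.92 in sham and 3.65 to 5.44 in TBI, against 3.28 to 3.99 and 4.77 to 5.35 on day 3. The sham libraries of day 7 thus spread more widely than those of day 3. Sham replicate 3 of day 7, at 5.92, has no TBI partner and adds nothing to the difference in the blocked fit. The 2 pairs of day 7 went opposite ways, from 5.39 in sham to 3.65 in TBI in replicate 1 and from 3.31 to 5.44 in replicate 2. The SE of the difference was 0.79 for Mtk and 1.92 for DptA. AttC was not called in this test. Without replicate 2 its difference was 4.48, in a fit that leaves 1 TBI library on day 7 and so holds no spread between day 7 pairs.

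**Figure D5:**
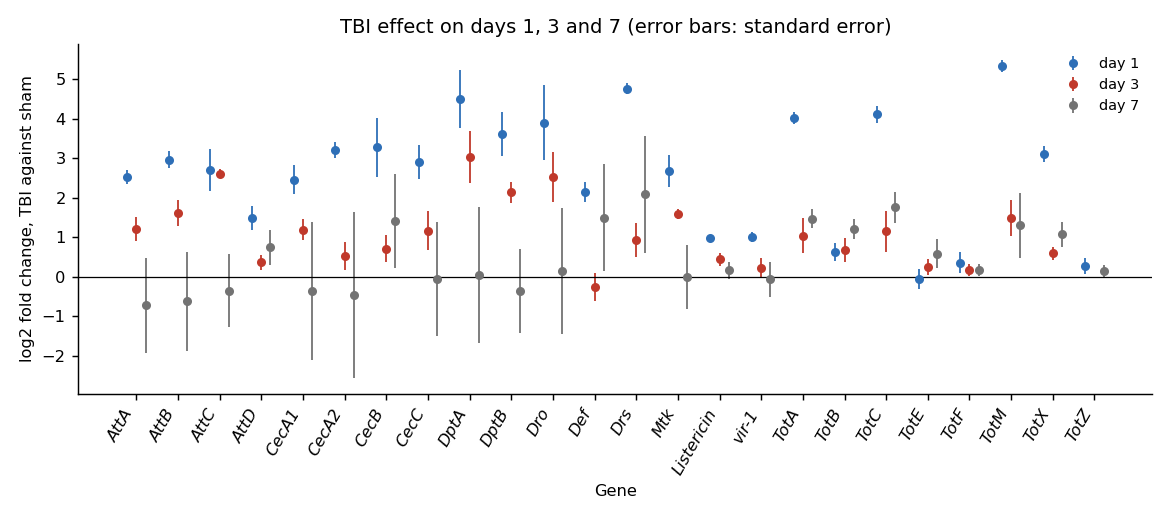
Log2 fold change of TBI against sham with its SE for the 16 antimicrobial genes and 8 Turandot genes on days 1, 3 and 7. On day 3 AttC was at 2.60 and on day 1 at 2.70, a difference with an SE of 0.62. Drs (0.93 against 4.76) and TotM (1.49 against 5.33) were lower than on day 1, and the error bars of day 7 are the widest.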

How the data were processed

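RNA from heads was pulled down with GFP-tagged ribosomes, amplified and sequenced as single-end reads. The authors deposited TPM values per gene, obtained by pseudoaligning reads to FlyBase transcripts with Kallisto and summing transcripts with tximport. The 13479 genes listed summed to 832800 to 854953 TPM per library. TPM keep no depth, so no counting error is given. Gene names matched a reference table for 13128 identifiers (97.4%), and coordinates are those of the release 6 annotation.

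Every gene detected in any library of a comparison was tested in limma 3.58.1 (R 4.3.3) on log2(TPM + 1), with empirical Bayes moderation and a trend, the replicate number as a block and Benjamini-Hochberg adjustment. The study's methods correct for replicates, use these thresholds (0.6 and 0.1), and test counts. Differences between days were interaction terms. P-values measure only the spread between these libraries. Figures were drawn with matplotlib 3.10.9 (Python 3.11.15; pandas 2.3.3).

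The members, the 47 gene lists and the tests were chosen with earlier results of these data known, and the germline list after its values were seen. Named genes were the 12 higher and 12 lower genes of lowest p with a mean of at least 10 TPM, equal direction in 3 pairs and no overlap, genes the study names for this day, list members (antimicrobial, Turandot and heat shock genes, members with an unadjusted p under 0.05, and the most abundant), and the 5 lowest p of each interaction. CG34227, bon, dhd and alphaTry, and pathway members with an unadjusted p over 0.05, were named after their values were seen. Alternatives were the block, a minimum mean of 1 TPM, a pseudocount of 0.1, upper-quartile and median-of-ratios scaling, a fit of all 17 libraries, stricter thresholds and each replicate left out. Leaving out single libraries, combinations with the 1 TPM minimum and centring by transcript length were added after seeing the data.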

Additional observations from a re-analysis of the deposited data

Results flagged for a closer look

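For 2 genes the injury effect of day 3 differed from that of day 1 in the interaction test. Hsp26, a small heat shock protein, stood at 110, 173 and 139 TPM in TBI on day 1 and at 10.8, 43.9 and 7.50 TPM on day 3, and its difference in log2 fold change was −4.69 (limma adjusted p = 0.0245). Its adjusted p was 0.134 without the replicate block, 0.139 to 0.459 with a replicate left out and 0.259 in a fit of all libraries, with the same direction throughout. CG31957 was at 3.49, 2.86 and 4.03 TPM in the 3 TBI libraries of day 1 and at or near 0 TPM in the libraries of day 3, and its difference was −2.15 (adjusted p = 0.0402), with adjusted p of 0.139 to 0.459 when a replicate was left out and 0.335 in the fit of all libraries. Groups of 3 libraries are too small for a test of single outlying libraries.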

How the results depend on the processing

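On day 3, 1 gene was called without the replicate block (bon, adjusted p = 0.0445), 3 with a mean of at least 1 TPM, 1 in the fit of all libraries (CG34227, adjusted p = 0.0264), and 1 after centring by transcript length, with or without the 1 TPM minimum (AttC, adjusted p = 0.0169 and 0.0126). All other settings gave 0, replicates left out included (0 to 0). Over the alternatives, adjusted p ranged from 0.0445 to 0.966 for bon and from 0.0264 to 1 for CG34227. For the difference from day 1, the 2 calls became 60 without the block, 100 with a mean of at least 1 TPM, 4 with a pseudocount of 0.1 and 0 to 0 with a replicate left out. For the difference from day 7, the 0 calls became 2 without the block and 0 to 260 with a replicate left out; the 260 came without replicate 2, where AttC had 4.48 (adjusted p = 0.0854). Same-numbered libraries of day 3 correlated at 0.455, 0.141 and −0.0261 after group means were removed, so the pairing was not seen in each pair. Sham replicate 2 correlated at 0.231 with TBI replicate 3, and sham replicate 3 at 0.217 with TBI replicate 2. The remaining unmatched pairs ran from −0.348 to −0.147. Of 102 genes followed through 15 settings, 100 kept their direction. PGRP-LC, at 0.18, ranged from −0.0507 (without replicate 1) to 0.30 with a replicate left out. DAT, at 0.04, turned to −0.0056 with median-of-ratios scaling, −0.0742 without sham replicate 2, −0.12 without TBI replicate 1, −0.0518 and −0.0444 after length centring without and with the 1 TPM minimum, and ran from −0.0687 to 0.14 with a replicate left out.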
